A study of Mus musculus with 8 samples.

Results

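IGHV1-85, IGHV1-80 and IGHV1-7 are 3 heavy-chain variable genes of the mouse IGHV1 family, and they were selected here because their share of cells was higher in Dtx1 knockout than in wild-type libraries. The members are the heavy contigs that name one of these genes in a barcode with exactly 1 heavy and 1 light contig, called a paired cell. There were 1341 such cells among 40603 paired cells, 982 of 21896 in the knockout and 359 of 18707 in the wild type. By gene, 358 cells carried IGHV1-85, 633 carried IGHV1-80 and 350 carried IGHV1-7.

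The series asked how Deltex-1 (Dtx1), a ubiquitin ligase linked to Notch signalling, bears on germinal-centre B cells. Spleen cells labelled as germinal-centre B cells were collected on day 10 after immunization, enriched with magnetic beads carrying peanut agglutinin (PNA), sorted by flow cytometry and put through droplet single-cell sequencing of their paired receptors. Of the 8 libraries, 4 were of genotype Dtx1-/- (KO) and 4 were of genotype Dtx1+/+ (WT). The sources used here do not give the immunogen, the strain, the age and number of the mice, the cells in which Dtx1 was lost or the sort gates.

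A heavy chain is built in each developing B cell by joining 1 V, 1 D and 1 J segment, and a light chain by joining a V and a J. The joint forms the third complementarity-determining region (CDR3), which lies at the centre of the antigen-binding site together with CDR1 and CDR2 of the V segment. In germinal centres the descendants of such a cell, a clone, add point mutations to the V segment and can switch the constant region of the heavy chain from IgM to IgG.

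A library held 11666 to 14732 contigs, 754954 to 1155339 unique molecular identifiers (UMIs) and 4585 to 5712 paired cells, so a count of 3 cells was 0.0525 to 0.0654% of a library (counting error only). Of the clones with at least 2 cells, 87.7% in KO and 88.4% in WT were found in at least 2 of the 4 libraries of their genotype. Tests over libraries therefore compare 2 pools of cells, and the spread between libraries of a genotype may be technical. Any 2 libraries shared 28 to 54 barcodes, and none of these shared barcodes carried the same heavy CDR3 in both libraries. Median heavy-chain UMIs per paired cell ranged from 37 to 41 over the KO libraries and from 22 to 25 over the WT libraries. Contigs hold no Dtx1 transcript and no germinal-centre marker, so neither the genotype nor the cell type named in the labels was checked.

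The 3 genes lie on chromosome 12 of the mouse build mm10 (GRCm38.p6 in RefSeq), each annotated as a V segment. IGHV1-85 occupies chr12:116000028-116000321 and was the last of 97 used IGHV genes placed along the locus. IGHV1-80 lies at chr12:115912344-115912637, the 93rd gene in that order, and IGHV1-7 at chr12:114538495-114538788, the 46th. The sequences below show what distinguishes the genes before mutation. Each was taken as the sequence that most clones of the gene had between framework 1 and framework 3, given in coding sense from 5′ to 3′, with CDR1 and CDR2 in capitals, and it was the same in both genotypes.
IGHV1-85: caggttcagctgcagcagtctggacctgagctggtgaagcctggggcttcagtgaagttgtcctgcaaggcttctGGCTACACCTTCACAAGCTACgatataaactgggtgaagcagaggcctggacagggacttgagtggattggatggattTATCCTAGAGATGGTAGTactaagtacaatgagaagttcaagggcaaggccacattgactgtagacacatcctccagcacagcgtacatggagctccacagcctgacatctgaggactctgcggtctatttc
IGHV1-80: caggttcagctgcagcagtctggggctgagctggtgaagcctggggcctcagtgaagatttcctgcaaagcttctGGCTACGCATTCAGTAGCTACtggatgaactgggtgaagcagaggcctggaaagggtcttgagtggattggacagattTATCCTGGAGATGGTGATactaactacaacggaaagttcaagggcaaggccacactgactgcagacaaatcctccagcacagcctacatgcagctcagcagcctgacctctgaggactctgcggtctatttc
IGHV1-7: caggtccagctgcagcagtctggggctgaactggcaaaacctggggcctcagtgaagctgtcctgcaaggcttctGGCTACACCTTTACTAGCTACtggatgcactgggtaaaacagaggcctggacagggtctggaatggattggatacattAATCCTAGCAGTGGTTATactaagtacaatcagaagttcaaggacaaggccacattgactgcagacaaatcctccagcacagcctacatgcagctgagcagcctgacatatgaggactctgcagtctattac

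The 3 genes were not each other's closest relatives. Over these 285 bases IGHV1-85 was 88.4% identical to IGHV1-80 and 85.6% to IGHV1-7, and IGHV1-80 was 86.7% identical to IGHV1-7. IGHV1-85 was nearest to IGHV1-84 (93.7%), IGHV1-66 (93.0%) and IGHV1-81 (92.6%). The nearest to IGHV1-80 were IGHV1-82 (96.1%), IGHV1-77 (89.8%) and IGHV1-84 (89.5%). For IGHV1-7 they were IGHV1-4, which differed at 7 bases (97.5%), IGHV1-53 (89.5%) and IGHV1-50 (88.4%). IGHV1-4 and IGHV1-82 differed from their pair gene at 7 and 11 bases, and whether mutated contigs were assigned to the wrong gene of a pair was not tested. Their own ratios of mean share, KO over WT, were 0.834 and 1.08.

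The rule chose the genes by the contrast described next, so these values carry no test. IGHV1-85 had 67, 71, 71 and 73 cells in the KO libraries, against 22, 21, 16 and 17 cells in the WT libraries. As a share of paired cells this was 1.29 ± 0.106% in KO and 0.406 ± 0.0553% in WT (SD, n = 4 libraries each), a ratio of 3.19. Among 70 IGHV genes with at least 5 paired cells in every library, that was the highest ratio. Genes nearly absent from WT fail this filter, and IGHV11-2 (36 KO and 3 WT cells, ratio 10.5) and IGHV1-37 (34 KO and 4 WT cells, ratio 7.36) had higher ratios.

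IGHV1-80 was the most used of the 3 genes, with 115, 146, 111 and 88 cells in the KO libraries and 46, 45, 42 and 40 cells in the WT libraries. Its share was 2.09 ± 0.341% in KO and 0.924 ± 0.0422% in WT (SD, n = 4 each), a ratio of 2.26 that ranked 5th. IGHV1-7 had 56, 62, 69 and 53 cells in KO libraries, against 26, 29, 29 and 26 in WT libraries. The shares of IGHV1-7 were 1.09 ± 0.0970% in KO and 0.589 ± 0.0439% in WT (SD, n = 4 each), a ratio of 1.86 that ranked 10th. For each gene every KO library lay above every WT library, which was also true of 30% of the 70 genes.

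**Figure D1:**
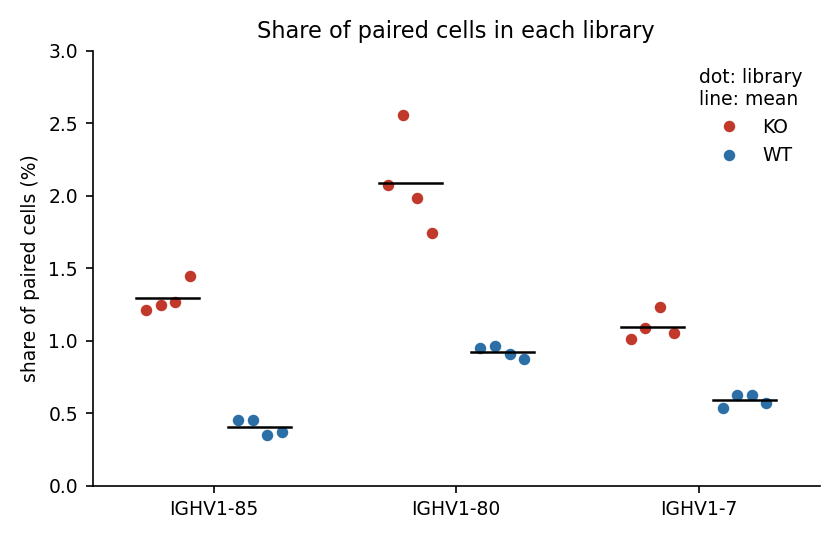
Share of paired cells (%) that carry each gene, with a dot for each library, 4 KO libraries to the left of 4 WT libraries, and a line at each mean. The KO dots lie above the WT dots for all 3 genes, with means of 1.29 against 0.406% for IGHV1-85.

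Used genes next to the 3 on the chromosome had other ratios. IGHV1-84, the used gene next to IGHV1-85, had a ratio of 1.11, and the genes on either side of IGHV1-80, IGHV1-78 and IGHV1-81, had ratios of 0.581 and 0.713. IGHV10-3 and IGHV15-2, on either side of IGHV1-7, had ratios of 1.06 and 0.134. The genes whose share over the 8 libraries was most like that of IGHV1-85 were IGHV2-3, IGHV1-72 and IGHV7-3 (Pearson r of log2 shares 0.98, 0.98 and 0.97, a description over 8 libraries that fall into 2 genotypes). For IGHV1-80 they were IGHV8-8, IGHV1-72 and IGHV1-85 (0.97, 0.95 and 0.95), and for IGHV1-7 IGHV8-8, IGHV7-3 and IGHV1-72 (0.97, 0.97 and 0.96). Of these, IGHV1-72, the gene known for responses to nitrophenyl haptens in C57BL/6 mice, had a ratio of 1.87, and IGHV2-3 one of 2.94.

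Clones were then counted to see whether few or many carried the difference. A clone had the same IGHV, IGHJ, light V and light J genes and the same heavy CDR3 length within a genotype, and its CDR3s were joined at a nucleotide identity of at least 0.85. IGHV1-85 was carried by 100 clones in KO and 46 in WT, IGHV1-80 by 246 in KO and 93 in WT, and IGHV1-7 by 113 in KO and 70 in WT. With each clone counted once, as a share of all clones of the genotype, the ratio KO over WT was 1.60 for IGHV1-85, 1.94 for IGHV1-80 and 1.19 for IGHV1-7.

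The 3 genes thus differed in how clones made up the cells. IGHV1-80 kept most of its ratio when clones were counted once, on the log2 scale 0.96 against 1.18 over cells. For IGHV1-85 the log2 ratio was 0.68 over clones against 1.67 over cells. IGHV1-7 had 0.25 over clones against 0.90 over cells, so that most of its cell difference lay in clones of several cells.

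At the WT share, the KO pool would have held 89.0 cells with IGHV1-85, and it held 193 more. The 24 largest of the 100 KO clones together held at least that many cells. For IGHV1-80 the surplus was 257.5 cells, as many as the 59 largest of 246 clones held, and for IGHV1-7 it was 111 cells, as many as the 13 largest of 113 clones held. Leaving out the largest clone of each genotype gave ratios of 3.25 for IGHV1-85, 2.37 for IGHV1-80 and 1.86 for IGHV1-7, so no single clone made the difference.

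Clones of 1 cell numbered 65 in KO and 37 in WT for IGHV1-85, which is 0.297% and 0.198% of the paired cells of each pool. Clones of 10 cells or more held 96 cells with this gene in KO (4 clones) and 12 in WT (1 clone), or 0.438% and 0.0641% of the pools. For IGHV1-7 the clones of 1 cell took nearly equal shares, 0.343% in KO and 0.305% in WT. For IGHV1-80 the single-cell clones alone were 0.790% in KO and 0.385% in WT. Drawn down to the same number of cells as in WT, the expected number of KO clones was 41.5 against 46 in WT for IGHV1-85, 119 against 93 for IGHV1-80 and 65.0 against 70 for IGHV1-7. For all other IGHV genes together it was 8986 in KO against 7383 in WT, so more clones in KO was not particular to IGHV1-80.

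**Figure D2:**
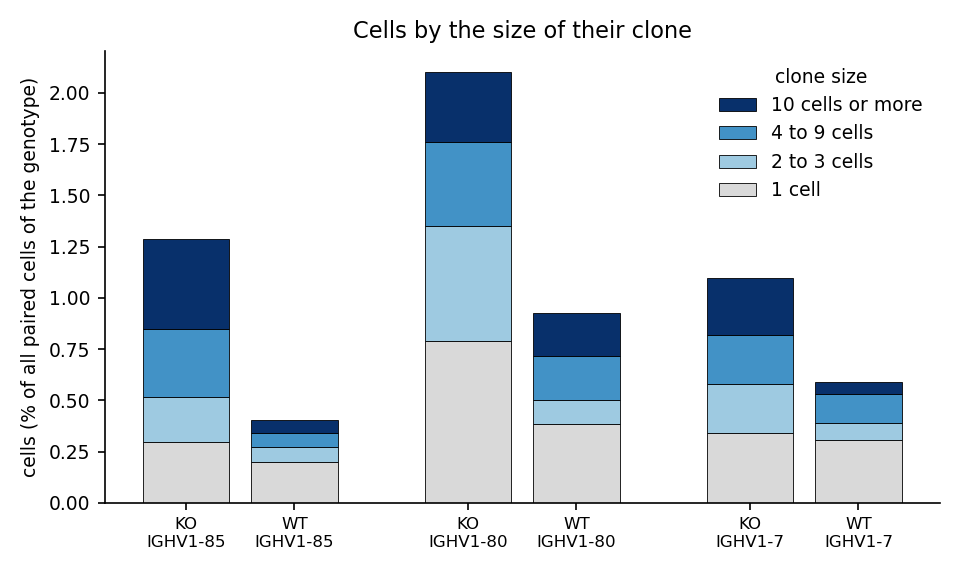
Cells of each gene as a percent of all paired cells of the genotype, stacked by the size of the clone they belong to, with KO left of WT for each gene. In IGHV1-80 every size class is larger in KO, down to clones of 1 cell (0.790 against 0.385%), while in IGHV1-7 the clones of 1 cell are close (0.343 against 0.305%).

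The heavy CDR3s of the largest clones show which receptors these cells carried. Each is given from the conserved cysteine codon to the tryptophan codon, with bases that match neither the usual V start (tgtgcaaga) nor the J end in capitals. The J end was the stretch in which at least 70% of the clones of a J gene had the same base at each position. It spanned 13 bases for IGHJ2 and IGHJ3 and 19 for IGHJ1 and IGHJ4, so capitals can include J bases further upstream.
IGHV1-85 IGHJ2 with IGKV1-110, KO, 40 cells: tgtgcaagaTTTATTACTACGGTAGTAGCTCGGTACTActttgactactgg
IGHV1-85 IGHJ4 with IGKV4-79, KO, 23 cells: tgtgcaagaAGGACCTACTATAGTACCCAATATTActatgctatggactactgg
IGHV1-85 IGHJ4 with IGKV2-109, KO, 17 cells: tgtgcaagaTCctatgctatggactactgg
IGHV1-85 IGHJ2 with IGKV16-104, WT, 12 cells: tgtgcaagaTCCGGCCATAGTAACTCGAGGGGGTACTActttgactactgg
IGHV1-85 IGHJ2 with IGKV1-135, WT, 7 cells: tgtgcaagGGGGCTGGGACGTGGGGactgg
IGHV1-85 IGHJ3 with IGKV5-48, WT, 6 cells: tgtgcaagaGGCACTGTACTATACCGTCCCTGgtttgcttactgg
IGHV1-80 IGHJ1 with IGKV16-104, KO, 33 cells: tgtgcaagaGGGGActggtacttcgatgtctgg
IGHV1-80 IGHJ4 with IGKV10-96, KO, 15 cells: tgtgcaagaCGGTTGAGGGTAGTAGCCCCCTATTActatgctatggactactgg
IGHV1-80 IGHJ2 with IGKV19-93, WT, 19 cells: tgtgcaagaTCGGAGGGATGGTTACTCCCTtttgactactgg
IGHV1-7 IGHJ1 with IGKV8-30, KO, 25 cells: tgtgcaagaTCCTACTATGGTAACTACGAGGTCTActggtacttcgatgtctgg
IGHV1-7 IGHJ4 with IGKV8-19, KO, 10 cells: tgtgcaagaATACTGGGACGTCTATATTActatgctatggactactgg
IGHV1-7 IGHJ2 with IGKV14-111, WT, 11 cells: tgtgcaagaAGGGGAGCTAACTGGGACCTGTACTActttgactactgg
IGHV1-7 IGHJ1 with IGKV2-137, WT, 8 cells: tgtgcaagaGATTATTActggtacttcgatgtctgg

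The clone of 40 cells spread over the KO libraries as 11, 10, 10 and 9 cells, and all 40 were IgM with no difference from the germline V sequence and 1 CDR3 sequence. The clones of 23 cells (IGHV1-85 with IGKV4-79) and 25 cells (IGHV1-7 with IGKV8-30) had the same features, as did the IGHV1-7 clone with IGKV8-19, the largest WT clones of IGHV1-85, 12 cells, and IGHV1-80, 20 cells, and the WT clone of 8 IGHV1-7 cells. The next WT clones of IGHV1-85 were switched and mutated. All 7 cells with IGKV1-135 carried IgG, 2 IGHG1 and 5 IGHG2B, with 3.29 V-segment differences per cell, and 4 of the 6 cells with IGKV5-48 carried IGHG3, with 2.67 differences per cell. The largest IGHV1-80 clone of KO was different: its 33 KO cells carried 22 distinct CDR3 sequences, 5 of them were IgG1, and 19 were unmutated in the V segment. Only 5 of its 33 CDR3 bases lay outside the V start and the J end, and linkage at this identity may join separate rearrangements of that kind. With clones defined by identical CDR3 nucleotides, the largest IGHV1-80 clone of KO had 15 cells and the gene had 302 clones in KO and 106 in WT.

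Light chains were compared within each gene, as cells of a pair over the cells of that IGHV gene. The choice of the genes used the cells per gene and not their light chains. A pair or clone with many KO cells raises both values, so these tests are not fully independent of that choice. Over all IGHV genes 455 pairs with at least 20 cells were tested, and 58.2% of them differed between KO and WT (edgeR quasi-likelihood test, Benjamini-Hochberg adjusted p under 0.05). Of 18 pairs with the 3 genes, 7 were higher and 5 lower in KO, a share near that of all pairs. Cells of 1 clone enter such a test one by one although they are not replicates of a genotype. In 6 of the 12 called pairs over 50% of the cells on the higher side were 1 clone, and no p is given for these. With each clone counted once per library, 9 of the pairs could be tested, and 3 were higher in KO and 0 lower. At an unadjusted p under 0.05 there were 4 higher and 0 lower. In that setting a clone found in several libraries still counted in each of them, so repeats of a clone were reduced but not removed. The same holds below wherever a pair test counts each clone once. DESeq2 over cells called 7 higher and 4 lower.

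IGHV1-85 with IGKV2-109 was carried by several clones. It had 9, 10, 13 and 18 cells in the KO libraries and 0 in each WT library. As a share of IGHV1-85 cells this was 17.7% in KO, at least 4.49-fold higher than in WT, where 3 cells of the pool were taken as the floor. The adjusted p was 3.36e-05 in edgeR over cells, and 0.000675 with each clone counted once per library, where clones found in several libraries entered repeatedly. In all other IGHV genes IGKV2-109 was carried by 1.08% of cells in KO and 0.610% in WT.

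These 50 cells fell into 12 clones, 9 of which had a heavy CDR3 of 10 amino acids, together 45 cells. In IGHV1-85 as a whole that length was found in 20.9% of KO cells (59 cells, these 45 among them) and 14.5% of WT cells. In all other IGHV genes it was found in 3.25% of KO and 2.84% of WT cells. The clones below, which had at least 5 cells, use both IGHJ2 and IGHJ4 and different light J genes, and 2 of them have the same heavy CDR3 sequence with different light J genes.
IGHJ4 with IGKJ1, KO, 17 cells: tgtgcaagaTCctatgctatggactactgg
IGHJ4 with IGKJ2, KO, 7 cells: tgtgcaagaTCctatgctatggactactgg
IGHJ2 with IGKJ1, KO, 7 cells: tgtgcaagaAACTGGGGCCttgactactgg
IGHJ2 with IGKJ1, KO, 5 cells: tgtgcaagaGGATGGGGTAACgactactgg

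Of the 50 cells 25 were unmutated and 9 were class-switched. The first clone has only 2 junction bases outside the V start and the J end.

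IGLV1, a lambda light gene, was carried by 7, 14, 8 and 13 IGHV1-85 cells in KO libraries, against 0, 1, 0 and 1 in WT libraries. The share was 14.9% in KO and 2.63% in WT, a ratio of 5.66 with a 95% counting interval of 1.47 to 48.3. It passed the test over cells (adjusted p 0.00509) and with each clone counted once per library (adjusted p 0.0187, edgeR), and the 42 KO cells came from 18 clones. In all other IGHV genes the direction was the other way, with IGLV1 in 2.13% of KO and 4.11% of WT cells.

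Other partners of IGHV1-85 rested on few clones. IGKV1-110 was paired in 41 KO cells and 1 WT cell, of which 40 belong to the clone printed above. IGKV4-79 was paired in 23 KO cells, all of 1 clone, and no WT cell. IGKV16-104 had 2, 2, 0 and 4 cells in KO and 5, 0, 4 and 5 in WT libraries, and 12 of the 14 WT cells were 1 clone. IGKV1-135 was found in no KO cell and in 10 WT cells of 4 clones, at least 12.4-fold lower in KO, and IGKV2-137 in 14 KO and 5 WT cells. Both pairs had too few cells for the test.

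For IGHV1-80 the partner higher in KO was IGKV16-104, with 10, 38, 13 and 10 cells in KO libraries against 0, 0, 3 and 0 in WT libraries. This was 15.4% of IGHV1-80 cells in KO and 1.73% in WT, a ratio of 8.90 (95% counting interval 2.93 to 44.2). The adjusted p in edgeR was 5.71e-05 over cells and 0.0255 with each clone counted once per library, and the 71 KO cells came from 18 clones. The clone of 33 cells with its 11-residue CDR3 supplied 17 of the 38 cells of KO replicate 2.

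IGKV4-55 went the opposite way. It was paired with IGHV1-80 in 1, 0, 1 and 0 cells of the KO libraries and 7, 6, 6 and 5 cells of the WT libraries, 0.435% in KO and 13.9% in WT (adjusted p 1.19e-08, edgeR over cells). The ratio KO over WT was 0.0313 (95% counting interval 0.00359 to 0.126). WT clones of 9 and 5 cells were each found in all 4 WT libraries, so sister cells entered that test in every WT library. With each clone counted once per library, the pair had too few cells for the test. In WT the 24 cells came from 8 clones, 5 of them with a heavy CDR3 of 7 amino acids (17 cells). Among IGHV1-80 cells that length was found in 1.30% in KO and 10.4% in WT (18 cells, these 17 among them). Among cells with other IGHV genes it was found in 0.263% in KO and 0.311% in WT. The WT clones of at least 2 cells with this length are shown.
IGHJ3 with IGKJ2, WT, 9 cells: tgtgcaagaGGCCcttactgg
IGHJ3 with IGKJ4, WT, 4 cells: tgtgcaagaGGGgcttactgg
IGHJ2 with IGKJ4, WT, 2 cells: tgtgcaagaGGGGGctactgg

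These cells were mutated, with 3.88 V-segment differences per cell on average over the 24, and 4 of them had none. The clone of 9 cells had 6 distinct CDR3 sequences and no unmutated cell.

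IGKV19-93 had 4 KO and 22 WT cells, and 19 of the WT cells were the clone printed above. IGKV17-121, at 23 KO and 11 WT cells, was not called (ratio 0.786, 95% counting interval 0.368 to 1.79, adjusted p 0.616). IGKV17-127 and IGKV2-109 averaged under 5% of IGHV1-80 cells over the genotypes and were named after their values were seen. IGKV17-127 had 36 KO and 2 WT cells (adjusted p 0.00163, and 0.117 with each clone counted once). IGKV2-109, which no WT cell paired with IGHV1-85, was paired with IGHV1-80 in 1, 0, 1 and 1 cells of KO libraries against 6, 3, 6 and 1 cells of WT libraries, 0.652% in KO and 9.25% in WT (ratio 0.0705, 95% counting interval 0.0132 to 0.246). The 16 WT cells came from 6 clones, and the pair had too few cells for the test. IGKV3-7 had 27 KO and 22 WT cells, of which 20 WT cells were 1 clone, and its call as lower in KO was lost without KO replicate 1 or 2 or WT replicate 1, 3 or 4 (log2 ratio -1.39 to -0.79 over all single libraries left out).

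The IGKV3-7 pair held a receptor found in both genotypes. With IGHJ1 and IGKJ2, 13 KO cells (2, 3, 5 and 3 by library) and 20 WT cells (9, 1, 5 and 5) had heavy CDR3s of 17 residues that encode the same amino acids and differ at 2 bases, shown in capitals.
KO: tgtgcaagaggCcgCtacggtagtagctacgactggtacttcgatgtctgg
WT: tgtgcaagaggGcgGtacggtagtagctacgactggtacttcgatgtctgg

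All of these cells were unmutated IgM, and the light CDR3 was the same sequence in both genotypes. Joining clones across genotypes at the same identity gave 3 clusters with cells of both genotypes for IGHV1-80 (16 KO and 27 WT cells, this receptor included). There were 4 for IGHV1-7 (5 KO and 18 WT cells) and 0 for IGHV1-85. Apart from the receptor above, their heavy CDR3s differed between genotypes at 1 to 3 amino acids, and some had different light CDR3s. No heavy CDR3 nucleotide sequence of the 3 genes was found in both genotypes.

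For IGHV1-7 the largest partner in WT was IGKV14-111, with 5, 1, 5 and 5 cells in KO libraries against 5, 7, 10 and 3 in WT libraries. It was lower in KO, at 6.67% of IGHV1-7 cells against 22.7% in WT (ratio 0.293, 95% counting interval 0.146 to 0.572, adjusted p 0.000766). By clones the genotypes were closer, with 15 in KO and 12 in WT, 11 of the 25 WT cells were 1 clone, and with each clone counted once the pair was not called (adjusted p 0.175). IGKV8-30 had 26 KO cells and 1 WT cell, and 25 of the KO cells were 1 clone. IGKV2-137 was found in 0 KO and 12 WT cells, at least 8.73-fold lower in KO and too few for the test.

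IGKV6-17 was paired with IGHV1-7 in 8, 4, 11 and 5 KO cells and 3, 2, 2 and 6 WT cells, or 11.7% in KO and 11.8% in WT. The ratio was 0.987 with a 95% counting interval of 0.495 to 2.08 (adjusted p 0.974). IGKV10-96 had 17 KO and 8 WT cells and a ratio of 0.974 (0.398 to 2.61, adjusted p 0.972). Most cells of the IGKV6-17 pair had a CDR3 of 11 residues, 28 of 28 in KO (4 clones) and 12 of 13 in WT (4 clones), all with IGHJ2. In all other IGHV genes 6.12% of KO and 5.49% of WT cells had that length. The largest clones of the pair are shown to compare their junctions.
KO, IGKJ1, 16 cells: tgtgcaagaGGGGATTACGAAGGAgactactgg
KO, IGKJ4, 10 cells: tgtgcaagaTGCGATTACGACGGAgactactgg
WT, IGKJ1, 6 cells: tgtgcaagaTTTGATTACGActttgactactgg
WT, IGKJ1, 4 cells: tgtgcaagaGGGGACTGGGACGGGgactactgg

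The 4 CDR3s belong to different clones. The clone of 16 KO cells had 3 switched cells and 11 unmutated ones, while the 10 KO cells and the 10 WT cells shown were all unmutated.

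**Figure D3:**
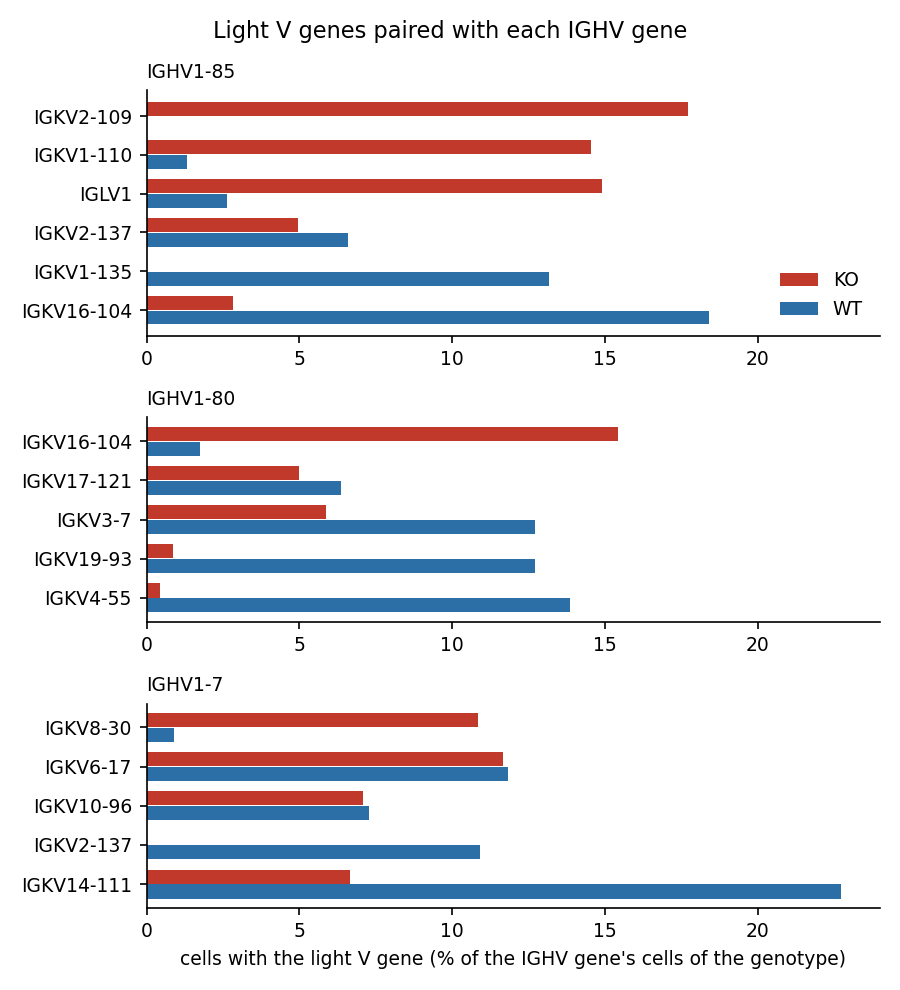
Light V genes carried by at least 5% of a gene's cells, averaged over the genotypes, as a percent of the gene's cells in KO (upper bar) and WT (lower bar) pools. IGKV2-109 with IGHV1-85 has 17.7% in KO and no WT cell, IGKV4-55 with IGHV1-80 has 0.435% in KO and 13.9% in WT, and IGKV6-17 with IGHV1-7 has 11.7% in KO and 11.8% in WT.

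The heavy J gene, which encodes the end of CDR3, was tested in the same way over 252 IGHV and IGHJ pairs, of which 24.2% differed between genotypes. Of the 12 pairs with the 3 genes, 2 were higher and 2 lower in KO. IGHJ4 with IGHV1-85 had 20, 14, 20 and 22 cells in KO libraries against 3, 1, 1 and 0 in WT libraries, 27.0% of its cells in KO and 6.58% in WT (log2 ratio 1.99, SE 0.45, adjusted p 0.00145, edgeR). IGHJ4 was also higher with IGHV1-80, at 31.5% in KO and 17.9% in WT (log2 ratio 0.81, adjusted p 0.0139), a call lost without WT replicate 1 (log2 ratio 0.68).

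IGHJ3 was lower with IGHV1-85 (15.2% in KO and 31.6% in WT, log2 ratio -1.04, adjusted p 0.0265), and IGHJ2 with IGHV1-80 (26.1% in KO and 39.9% in WT, log2 ratio -0.61, adjusted p 0.0260). Both calls were lost without KO replicate 1, WT replicate 2 or WT replicate 4, for IGHJ3 also without KO replicate 4 or WT replicate 1 and for IGHJ2 also without KO replicate 2. Over the single libraries left out, the log2 ratio was -1.23 to -0.90 for IGHJ3 and -0.72 to -0.47 for IGHJ2. With each clone counted once none of the 12 pairs was called by edgeR (1 at an unadjusted p under 0.05), and DESeq2 over cells called 1, IGHV1-85 with IGHJ4. IGHV1-85 used IGHJ4 in 20 clones in KO and 5 in WT. No J pair of IGHV1-7 was called, and its IGHJ2, IGHJ4, IGHJ1 and IGHJ3 shares were 38.8, 26.3, 21.2 and 13.8% in KO and 42.7, 21.8, 24.5 and 10.9% in WT.

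Mutation was measured as the percent of the 285 V-segment bases that differ from the germline sequence. IGHV1-85 cells had mean frequencies of 0.309, 0.153, 0.331 and 0.197% in KO libraries, against 0.415, 0.785, 0.658 and 0.372% in WT libraries. Every KO library lay below every WT library, and the difference KO minus WT was -0.313 (SE 0.0916, limma over 70 genes, adjusted p 0.0181). IGHV1-7 had 0.0815, 0.198, 0.280 and 0.245% in KO and 0.769, 0.678, 0.278 and 0.499% in WT libraries. KO replicate 3 lay just above the lowest WT library, and the difference was -0.347 (SE 0.0930, adjusted p 0.0126).

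For IGHV1-80 the frequencies were 0.494, 0.250, 0.174 and 0.179% in KO and 0.244, 0.655, 0.443 and 0.404% in WT libraries, which overlap, and the difference was -0.157 (SE 0.102, adjusted p 0.213). KO replicate 1 held 1 cell with 49 differences and 4 heavy UMIs. Without cells of over 20 differences, an alternative added after seeing the data, the IGHV1-80 difference was -0.194 and was called (adjusted p 0.0497).

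Lower mutation in KO was common to the genes of the series: 52.9% of the 70 genes were called lower, and the median difference was -0.156. The mean over all other IGHV genes was 0.221 ± 0.0147% in KO and 0.431 ± 0.0114% in WT (SD, n = 4 each). Set against the other genes of the same library, no member was called in its mutation level (51.4% of genes were called in either direction) or in the KO minus WT difference of that contrast (35.7% called), by limma. At an unadjusted p under 0.05, 0 members were past the threshold in either contrast.

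The IGHV1-85 call was lost without WT replicate 2 (-0.226) or WT replicate 3 (-0.286), with each clone counted once (-0.236), and among cells with 20 to 40 heavy UMIs (-0.0462, adjusted p 0.863). The IGHV1-7 call was lost with the replicate block (-0.346, limma adjusted p 0.0580) and in the exact permutation test (p = 0.0571, where 0.0286 is the smallest the 70 assignments allow), and IGHV1-7 had too few cells for a fit at 20 to 40 UMIs.

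Cells with no difference from the germline made up 73.0% of IGHV1-85 cells in KO and 48.7% in WT. For IGHV1-80 the shares were 68.7% in KO and 68.2% in WT, and for IGHV1-7 79.2% in KO and 60.9% in WT. In all other IGHV genes they were 78.4% in KO and 65.5% in WT. Cells with at least 4 differences were 5.34, 6.09 and 5.83% of IGHV1-85, IGHV1-80 and IGHV1-7 cells in KO, against 19.7, 16.8 and 20% in WT. Among mutated cells the mean number of differences was 2.59 in KO and 3.10 in WT for IGHV1-85, 2.54 and 3.91 for IGHV1-80, and 2.80 and 4.02 for IGHV1-7. Naive B cells also carry unmutated IgM or IgD, and such cells were 71.5% of IGHV1-85 cells in KO and 47.4% in WT, 67.0% of IGHV1-80 cells in KO and 66.5% in WT, and 78.8% of IGHV1-7 cells in KO and 58.2% in WT. In all other IGHV genes they were 77.1% in KO and 64.9% in WT. IgD contigs, the other naive marker, were found in 1 KO and 2 WT cells of IGHV1-80, in 0 KO and 2 WT cells of IGHV1-7 and in no IGHV1-85 cell. The part of naive cells in these values was not tested.

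**Figure D4:**
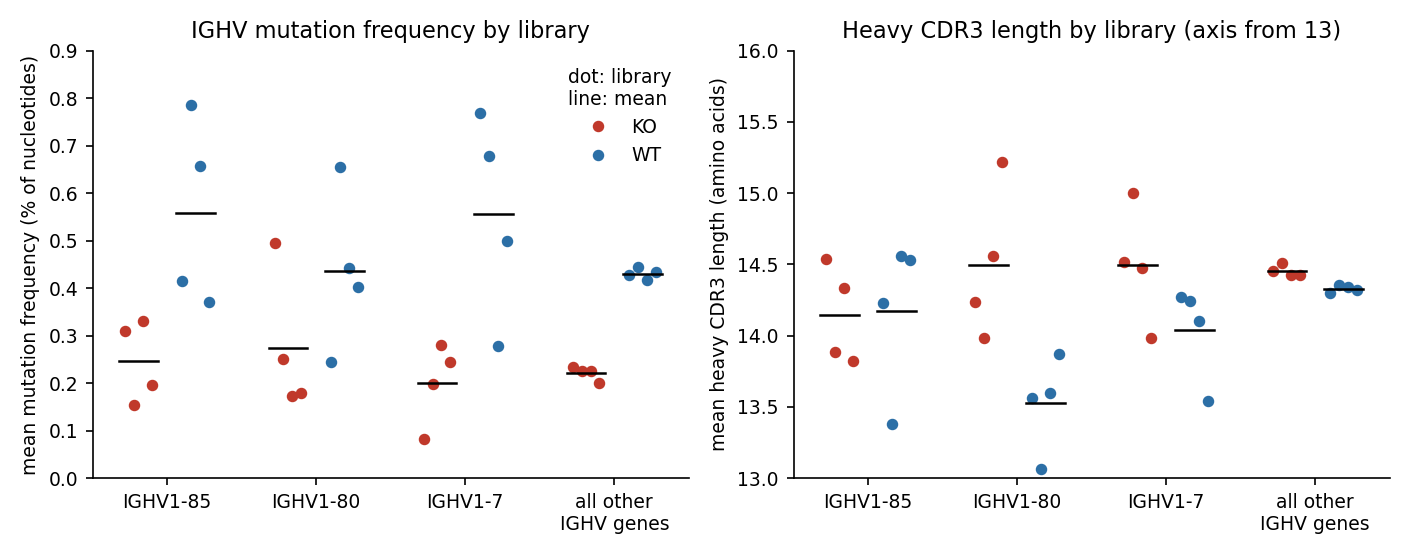
Mean mutation frequency (left, % of V-segment nucleotides) and mean heavy CDR3 length (right, amino acids, axis from 13) in each library, with KO left of WT and a line at each mean. For IGHV1-85 all KO libraries lie below all WT libraries in mutation, and for IGHV1-80 all KO libraries lie above all WT libraries in CDR3 length.

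Replacement mutations were counted once per clone, with positions numbered from 1 at the first codon of framework 1. A serine in CDR1 was the most often changed residue of IGHV1-80, as S31N in 19 clones (11 KO and 8 WT) and S31T in 14 (11 KO and 3 WT), followed by A28V in 11 (8 KO and 3 WT). The same codon led in IGHV1-7, with S31N in 11 clones (5 KO and 6 WT) and S31T in 11 (5 KO and 6 WT), before S54N of CDR2 in 8 (3 KO and 5 WT). In IGHV1-85 the leading replacements were S57N in 8 clones (5 KO and 3 WT), S31N in 7 (5 KO and 2 WT) and S77N in 6 (3 KO and 3 WT). The germline codon of position 31 is agc in each of the 3 genes, a trinucleotide known as a hotspot of the mutating enzyme AID. The order differed between genotypes, in counts too small to rank: T28I was the most frequent IGHV1-85 replacement in WT (2 KO and 4 WT clones), and in IGHV1-80 K63N (4 KO and 5 WT) and A24T (3 KO and 5 WT) came before S31T and A28V in WT. These 3 were named after their values were seen, and the difference between genotypes was not tested. Seen over both genotypes, 70 of 117 distinct replacements of IGHV1-85, 107 of 172 of IGHV1-80 and 86 of 121 of IGHV1-7 were seen in 1 clone.

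Most cells of the 3 genes were IgM. IGHM was read in 255 of 281 IGHV1-85 cells in KO (90.7%) and 60 of 76 in WT (78.9%). For IGHV1-80 it was 409 of 459 in KO (89.1%) and 159 of 173 in WT (91.9%), and for IGHV1-7 228 of 240 in KO (95%) and 96 of 108 in WT (88.9%). No IgA cell was found in the 3 genes, which allows a share of up to 1.07% of IGHV1-85, 0.654% of IGHV1-80 and 1.25% of IGHV1-7 cells in KO, at 3 cells of each total.

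The class-switched share, cells with an IgG or IgA constant gene, was 4.55, 7.04, 15.5 and 9.59% of IGHV1-85 cells in KO libraries and 18.2, 33.3, 12.5 and 17.6% in WT libraries. KO replicate 3 overlaps the WT values, and the difference of -11.8 percentage points (SE 4.61) was not called (adjusted p 0.143, unadjusted p 0.0348). The differences for IGHV1-80, 3.74 (SE 2.44, adjusted p 0.351), and IGHV1-7, -4.26 (SE 2.47, adjusted p 0.313), were not called either. Over the 70 genes 5.71% were called lower and 4.29% higher in KO. By the exact permutation test the smallest p of the 3 genes was 0.0571, for IGHV1-85. Of the 16 switched IGHV1-85 cells in WT, 7 were the clone with IGKV1-135 and 4 the clone of 6 cells with IGKV5-48. By clones, 13 of 100 held a switched IGHV1-85 cell in KO and 7 of 46 in WT.

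Against the other genes of the same library, averaged over genotypes, IGHV1-85 had a switched share 8.14 percentage points higher (SE 2.08, limma adjusted p 0.0125), where 15.7% of genes were called higher. The call was lost without WT replicate 2 (5.92) and among cells with 20 to 40 heavy UMIs (8.83, adjusted p 0.189). No member was called in the KO minus WT difference of that contrast (11.4% of genes called). IGHV1-85 was at -11.04 there (adjusted p 0.118, unadjusted p 0.0220), and it was called without KO replicate 3 (-13.1, adjusted p 0.0476).

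IgG1 made up nearly all switched cells of 2 genes in KO. It was 25 of 26 switched IGHV1-85 cells in KO (96.2%, exact 95% interval 80.4 to 99.9%) and 5 of 16 in WT (31.2%, 11.02 to 58.7%). For IGHV1-80 it was 46 of 49 in KO (93.9%, 83.1 to 98.7%) and 5 of 12 in WT (41.7%, 15.2 to 72.3%). IGHV1-7 had 7 of 12 in KO and 0 of 10 in WT. All other IGHV genes had 78.3% IgG1 among switched cells in KO and 45.7% in WT, so the direction was shared with the rest of the series, and the difference was not tested. In WT the other switched IGHV1-85 cells were 5 IGHG2B, all of 1 clone, and 6 IGHG3. The 25 IgG1 cells of IGHV1-85 in KO came from 12 clones and the 46 of IGHV1-80 from 27.

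Heavy CDR3s of IGHV1-80 were longer in KO on average, while the median over cells was 14 residues in both genotypes. Mean lengths were 14.2, 14.0, 14.6 and 15.2 amino acids in KO libraries against 13.6, 13.1, 13.6 and 13.9 in WT libraries, and the groups did not overlap. The difference was 0.907 residues (SE 0.292, limma adjusted p 0.0220), where 24.3% of genes were called longer in KO. The call was lost without WT replicate 1 (0.926), WT replicate 2 (0.750) or WT replicate 3 (0.933), and among cells with 20 to 40 heavy UMIs (0.637, adjusted p 0.423). The difference also departed from that of the other genes, by 0.777 residues (SE 0.300, adjusted p 0.0439), where 21.4% of genes were called higher. That call was lost without KO replicate 3 or 4 or WT replicate 1, 2, 3 or 4, and the value was 0.578 to 1.00 over all single libraries left out. Both differences include the 7-residue CDR3s, 18 IGHV1-80 cells in WT (10.4%, 6 clones) and 6 in KO (1.30%, 2 clones). The difference without CDR3s of that length was not tested.

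Averaged over genotypes, the CDR3s of IGHV1-80 were 0.424 residues shorter than those of the other genes of the library (-0.424, SE 0.150, adjusted p 0.0190), and 44.3% of genes were called shorter in this way. That call was lost without KO replicate 2 (-0.310) or WT replicate 2 (-0.340). The genotypes entered it unequally. In KO libraries the mean was 14.5 ± 0.532 residues for IGHV1-80 and 14.5 ± 0.0406 for the other genes, with replicates 3 and 4 above the other genes and 1 and 2 below, while in WT libraries it was 13.5 ± 0.336 and 14.3 ± 0.0258 (SD, n = 4 each). The 7-residue CDR3s described above are among the WT cells that enter this mean. For IGHV1-85 the mean length was 14.1 in KO and 14.1 in WT cells (difference 0.0067, SE 0.309, adjusted p 0.983). For IGHV1-7 it was 14.5 in KO and 14.0 in WT cells (difference 0.467, SE 0.268, adjusted p 0.173).

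Heavy-chain UMIs, the number of heavy transcripts captured per cell, differed between the 3 genes and between the genotypes. Median UMIs per IGHV1-85 cell were 61, 51, 54 and 56 in KO libraries against 29, 21, 25.5 and 26 in WT libraries. IGHV1-80 had 29, 36, 31 and 29 in KO and 22, 18, 23 and 17.5 in WT libraries. IGHV1-7 had 11, 10, 10 and 10 in KO and 9, 7, 8 and 8.5 in WT libraries. Over its pooled cells IGHV1-7 had the lowest median of the 70 genes in KO (10, range over genes 10 to 70) and in WT (8, range 8 to 41). Its light-chain medians were 85.5 in KO and 80 in WT, within the 50 to 105 and 43 to 112 of all genes.

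Chains with few UMIs can be missed. Of IGHV1-7 cells, 8.93, 6.45, 10.1 and 5.66% in KO and 15.4, 24.1, 20.7 and 26.9% in WT libraries had under 5 heavy UMIs. Among cells with at least 5 heavy UMIs the KO to WT ratio of shares was 3.23 for IGHV1-85, 2.25 for IGHV1-80 and 2.12 for IGHV1-7. Among cells with 20 to 40 heavy UMIs in both genotypes it was 2.03 for IGHV1-85 (63 KO and 30 WT cells, 95% counting interval over the pools 1.30 to 3.26), 2.37 for IGHV1-80 (151 and 62 cells, 1.75 to 3.23) and 3.55 for IGHV1-7 (36 and 10 cells, 1.70 to 7.88). The genes were chosen by this contrast and sister cells of a clone were counted one by one, so these intervals are no test of it. The intervals overlap, so the 3 genes could not be ordered in this range. The part of the UMI difference in their shares was not tested beyond these values. Cells with over 10 times the library's median heavy UMIs, as plasmablasts can have, were 1 KO cell of IGHV1-85 and 1 WT cell of IGHV1-80.

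**Figure D5:**
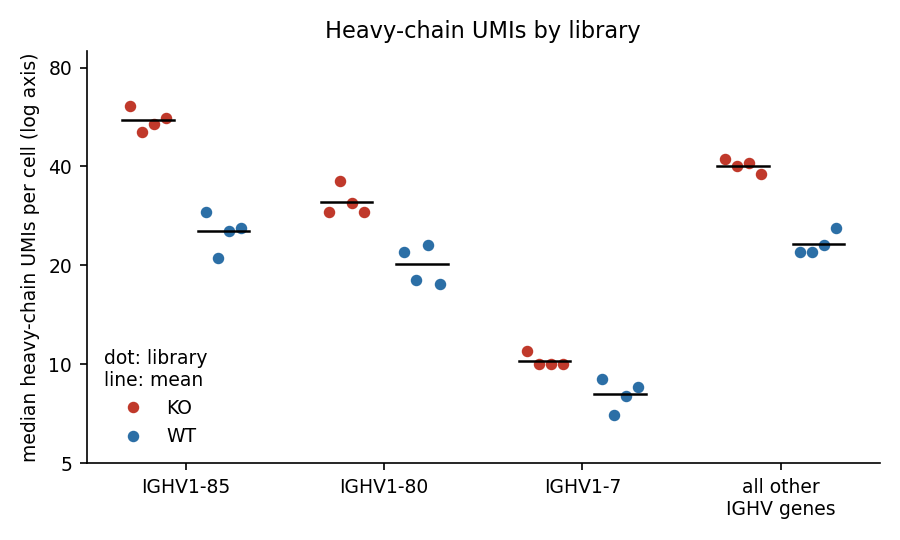
Median heavy-chain UMIs per cell in each library (log axis) for the 3 genes and all other IGHV genes, with KO left of WT and a line at each mean. IGHV1-7 lies lowest, with KO dots between 10 and 11 and WT dots between 7 and 9, while IGHV1-85 has KO dots between 51 and 61 and WT dots between 21 and 29.

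Barcodes with several heavy contigs, left out here as possible doublets, held 29 of 340 IGHV1-85 contigs in KO (8.53%) and 21 of 108 in WT (19.4%). For all genes they held 7.70% of heavy contigs in KO and 6.26% in WT. With all barcodes of 1 heavy contig counted, whatever their light contigs, the ratios were 3.08 for IGHV1-85, 2.38 for IGHV1-80 and 2.08 for IGHV1-7. That setting still leaves out the barcodes with several heavy contigs. With those included, IGHV1-85 was 340 of 26577 heavy contigs in KO and 108 of 22375 in WT. IGHV1-80 was 578 in KO and 207 in WT, and IGHV1-7 297 and 121.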

How the data were processed

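The deposited tables give, per the file headers, raw read and UMI counts of each assembled receptor contig, with no normalization, beside its gene names and the sequences of its regions. Cell Ranger, R 4.3.1 and the build mm10 are named in the submitters' processing notes. All 104649 contigs were marked productive.

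Members, lists and tests were chosen with earlier results of these data known. Paired cells had 1 heavy and 1 light contig, and no doublet caller was run. Germlines came from the most common sequence over at least 20 clones, which gave 77 of 97 IGHV genes. Mean mutation, switched share and CDR3 length per gene and library were fitted with limma 3.58.1, weighted by cells, over 70 genes with at least 5 cells in every library. Pairs with at least 20 cells were tested as counts with edgeR 4.0.16 (quasi-likelihood, offset of the gene's cells), and with DESeq2 1.42.0 as an alternative. P-values were Benjamini-Hochberg adjusted over all genes or pairs, with a threshold of 0.05. R 4.3.3 and, for other steps, Python 3.11.15 with SciPy 1.17.1, NumPy 2.4.6, pandas 2.3.3 and matplotlib 3.10.9 were used. The fits were tested on simulated data drawn independently for each library and without clones. The effect of clones shared between libraries was therefore not covered. Intervals are exact (Clopper-Pearson, 95%) and cover counting error only.

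The text names light V genes carried by at least 5% of a gene's cells averaged over the genotypes, all IGHJ and constant genes, the 3 most alike and the 3 most identical IGHV genes, the used neighbours, the 3 largest clones per genotype and the 3 most frequent replacements. Symbols and coordinates come from a RefSeq table of GRCm38.p6. The alternative without cells of over 20 differences was added after seeing the data.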

Additional observations from a re-analysis of the deposited data

Results flagged for a closer look

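IGHV1-7 cells of KO replicate 1 had a median of 11 heavy-chain UMIs, while the other 3 KO libraries each had 10, and the gap test used flagged this library. The test divides the gap by the range, so with 3 tied values any difference is flagged, however small. The lambda share of IGHV1-7 cells in WT replicate 4 was 7.69%, apart from 3.45 to 3.85% in the other WT libraries, which are 1 or 2 cells of 26 to 29. Of 48 groups of 4 libraries tested in this way 2 had such a library, and chance gives about 1 in 20 for values without ties.

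The KO minus WT difference in heavy CDR3 length departed for IGHV1-80 from that of the other IGHV genes by 0.777 residues (limma, adjusted p 0.0439), in a test of the difference itself. Over that result's other settings the adjusted p was 0.00579 to 0.435, and it was under 0.05 in 8 of 16. CDR3s of 7 residues, more frequent among WT cells of IGHV1-80, enter this difference.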

How the results depend on the processing

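The numbers of cells limit these results: IGHV1-85 had 16 to 22 cells in a WT library. Gene shares gave no sign that replicate numbers pair the libraries. Deviations of log2 shares over 70 genes correlated at -0.19, -0.046, -0.081 and -0.11 between KO and WT libraries of the same number. A pairing that leaves gene shares unchanged would not be seen in this way. With the replicate block, IGHV1-7 lost its mutation call (-0.346, adjusted p 0.0580), and no other call changed. Over the tests, counts and shares of the 3 genes, 473 of 554 values under other settings kept their direction and call or stayed close to the reported value, while 29 turned sign, 24 moved further, 23 lost a call and 5 gained one. For single light V or J genes 292 of 334 were kept, 13 turned sign and 29 lost a call. Signs below are KO minus WT or gene minus rest, and the causes were not tested beyond what each setting itself leaves out.

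At 20 to 40 heavy UMIs, with fewer cells, no IGHV1-7 fit could be made. The IGHV1-85 mutation difference was -0.0462, the IGHV1-80 CDR3 difference 0.637, the IGHV1-85 switched share over the rest 8.83 and the IGHV1-80 CDR3 length over the rest -0.365, none of them called. Uncalled values turned sign there for IGHV1-85 CDR3 length over the rest (0.365), IGHV1-80 switched share over the rest (-1.27), and the IGHV1-85 differences against the rest in mutation (0.123) and CDR3 length (0.321). The IGHV1-80 CDR3 difference against the rest was 0.645, not called. Log2 share ratios were 1.02 for IGHV1-85 and 1.83 for IGHV1-7, and 1.08 for IGHV1-7 at 5 UMIs or more. At 5 UMIs or more the IGHV1-80 mutation difference against the rest turned to -0.00169 and the IGHV1-7 switched share over the rest to -0.0934, both uncalled.

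With each clone counted once, the IGHV1-85 mutation difference was -0.236 and lost its call, and CDR3 length over the rest became called for IGHV1-85 (-0.737) and IGHV1-7 (-0.291). Uncalled values turned sign for IGHV1-85 CDR3 length (-0.304), IGHV1-80 mutation over the rest (-0.0173), IGHV1-7 switched share over the rest (-0.431), the IGHV1-85 mutation difference against the rest (0.0498) and IGHV1-7 with IGHJ2 (log2 0.0195). Log2 share ratios were 0.68 for IGHV1-85 and 0.25 for IGHV1-7. Light pairs called were 3 higher and 0 lower in KO, and J pairs 0 higher and 0 lower by edgeR, with 1 at an unadjusted p under 0.05.

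Uncalled IGHV1-85 CDR3 length turned to -0.0289 without weights and in the exact permutation test, to -0.00972 with all cells of 1 heavy contig and to -0.290 in IgM cells. With all cells of 1 heavy contig, the IGHV1-80 CDR3 difference against the rest lost its call (0.626) and the IGHV1-7 switched share over the rest turned to -0.346. Against other IGHV1-family genes, uncalled values turned sign for IGHV1-80 mutation (-0.0190), IGHV1-7 switched share (-0.820) and the IGHV1-85 CDR3 difference (0.0708). The exact permutation test gave -0.355 for IGHV1-7 mutation (p = 0.0571, smallest possible 0.0286). Without cells of over 20 differences, chosen after seeing the data, the IGHV1-80 mutation difference was -0.194 and was called. DESeq2 called 1 J pair higher and 0 lower (4 at an unadjusted p under 0.05), TMM factors 1 higher, and cells with at least 5 UMIs 1 lower. Over all J pairs, 30 were called higher and 31 lower, and with TMM factors 20 higher and 47 lower. Without the filter on pairs 8 light pairs were called lower. IGHV1-85 with IGHJ1, uncalled, turned to log2 -0.17 with TMM factors and -0.12 at 5 UMIs or more.

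Leaving out 1 library gave KO minus WT ranges of -0.371 to -0.226 (IGHV1-85) and -0.229 to -0.0799 (IGHV1-80, called without KO replicate 1) for mutation, and -0.280 to 0.122 (IGHV1-85, sign turned without KO replicate 1 or 3 or WT replicate 2) and 0.719 to 1.11 (IGHV1-80) for CDR3 length. Over the rest they were 5.92 to 9.27 (IGHV1-85 switched share), -0.00557 to 0.0646 (IGHV1-80 mutation), -0.523 to -0.310 (IGHV1-80 CDR3 length) and -0.944 to 1.03 (IGHV1-7 switched share). For the difference against the rest they were -13.3 to -6.59 (IGHV1-85 switched share), -0.0165 to 0.124 (IGHV1-80 mutation) and 0.578 to 1.00 (IGHV1-80 CDR3 length). Log2 ratios were -0.24 to 0.47 for IGHV1-7 with IGKV6-17, -0.28 to 0.55 with IGKV10-96, and -0.26 to 0.33 for IGHV1-85 with IGHJ1. Counts of called pairs were 5 to 8 higher and 2 to 5 lower for light genes (2 lower without WT replicate 1 or 3), and 1 to 2 higher and 0 to 2 lower for J genes (0 lower without KO replicate 1, WT replicate 2 or WT replicate 4).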
